A study of Mus musculus with 8 samples.

Results

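The genes described here are 10 genes of the red blood cell lineage: the transcription regulators Klf1, Gata1 and Hemgn, the erythropoietin receptor Epor, and the membrane or membrane-associated proteins Ermap, Rhd, Rhag, Cldn13, Sphk1 and Mfsd2b. They were found by their symbol in the array annotation, which gave 12 probe sets of 45037 and 10 genes of the 18193 that could be named. Sphk1 and Mfsd2b had 2 probe sets each and the other genes 1, and a gene is represented below by its probe set with the highest mean. Expression was measured in mouse hematopoietic and embryonic stem cells (HSC and ESC) with and without Zfx, an X-linked zinc finger transcription factor, on 8 Affymetrix Mouse Genome 430 2.0 arrays in 4 groups of 2. The HSC Zfx-cko group carried a loxP-flanked Zfx gene (Zfxflox/y) and Mx1-Cre, and the HSC Zfx-flox group was the same floxed genotype without Cre. Both HSC groups came from littermates given pI·C, which induces the interferon-responsive Mx1 promoter, and marrow was taken 4 days after the last injection. The ESC groups were Zfx-null clones and floxed Zfx-flox clones, both grown on gelatin in serum replacement and LIF. The labels do not say how many clones each array stands for.

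Several features limit these groups as models. Mx1-Cre was present in HSC Zfx-cko alone, so the presence of Cre and the loss of Zfx cannot be told apart in HSC. Mx1-Cre is active in many cell types of the marrow and in other organs. Marrow was pooled from 4 to 6 mice, and the sorted cells were lineage-negative, Sca-1+ and c-Kit+, a gate that holds multipotent progenitors beside stem cells. The arrays of a group were, per the labels, hybridized in duplicate and may share 1 RNA sample, so the p-values reflect variation between arrays alone, possibly technical. HSC RNA had an additional round of amplification that ESC RNA did not have, so cell type and amplification cannot be told apart wherever levels or effects of both are set side by side. In bulk samples such as these, fewer cells of a type and less RNA per cell cannot be told apart.

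Red blood cells arise from multipotent progenitors through committed erythroid progenitors and erythroblasts. Gata1 binds GATA motifs and Klf1 binds CACCC boxes in the promoters and enhancers of erythroid genes, and erythropoietin acting on its receptor keeps committed progenitors alive. Later in the lineage the cells assemble a membrane that carries the Rh complex and other blood group proteins, and mature red cells store and release sphingosine 1-phosphate (S1P), a lipid that guides cells out of tissues into blood. Most of these genes are known for their place in the committed lineage, while low levels of some, Gata1 and Epor among them, are part of the mixed-lineage expression of early progenitors.

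The sequence just upstream of each start was read from RefSeq promoters (GRCm38.p6), where 9 of the 10 genes matched. The letters GATAA, searched on both strands (TTATC on the other strand), stood within 250 bases upstream of a start in 7 of the 9 genes, against 25.47% of the 27025 genes in the table. CCNCNCCC, a loose spelling of the CACCC box searched on both strands, was present in 5 of the 9 against 48.46% of genes. It also matches stretches without the letters CACCC, such as the run of G in Hemgn, and misses some that hold them. AGGCCT, the palindromic core of the motif described for Zfx, was present in 0 of the 9 against 9.89% of genes. GATAA and CCNCNCCC matches did not overlap in the stretches printed. A match is a description of letters and not a binding site, and nothing on these arrays measured binding. The 100 bases before the start are given for 7 genes, picked by these letters, 5′ to 3′ on the gene's strand. They show where the GATA letters fall among the genes that follow and, for Gata1 itself, the CCNCNCCC letters in their place. Capitals mark GATAA or TTATC and CCNCNCCC or its reverse complement.
Klf1: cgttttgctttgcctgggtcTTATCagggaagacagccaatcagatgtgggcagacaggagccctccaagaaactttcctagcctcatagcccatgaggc
Gata1: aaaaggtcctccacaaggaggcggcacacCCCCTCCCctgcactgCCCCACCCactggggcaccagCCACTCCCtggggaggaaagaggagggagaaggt
Hemgn: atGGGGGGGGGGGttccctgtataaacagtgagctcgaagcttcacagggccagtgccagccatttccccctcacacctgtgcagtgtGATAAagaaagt
Epor: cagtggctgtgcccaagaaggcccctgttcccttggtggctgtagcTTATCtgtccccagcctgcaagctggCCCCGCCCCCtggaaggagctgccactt
Rhag: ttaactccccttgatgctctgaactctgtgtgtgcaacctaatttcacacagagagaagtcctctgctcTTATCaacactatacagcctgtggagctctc
Rhd: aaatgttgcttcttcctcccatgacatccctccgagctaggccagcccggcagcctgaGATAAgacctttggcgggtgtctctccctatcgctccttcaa
Ermap: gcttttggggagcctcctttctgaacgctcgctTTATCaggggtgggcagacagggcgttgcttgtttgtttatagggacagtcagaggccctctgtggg
The stretches lay at chr8:84901882-84901981 (plus strand) for Klf1, chrX:7967911-7968010 (minus strand) for Gata1, chr4:46404184-46404283 (minus strand) for Hemgn, chr9:21963577-21963676 (minus strand) for Epor, chr17:40811049-40811148 (plus strand) for Rhag, chr4:134864436-134864535 (plus strand) for Rhd and chr4:119189996-119190095 (minus strand) for Ermap. The GATA letters began 80 bases before the start in Klf1, 54 in Epor, 67 in Ermap, 42 in Rhd, 31 in Rhag and 12 in Hemgn. In Sphk1, not printed, they began 124 and 131 bases before 2 of its 5 starts. Mfsd2b, also not printed, held no GATAA within 250 bases, and Cldn13 was the gene without a promoter match.

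Each value is a signal intensity on the authors' linear scale, scaled to the same trimmed mean on every array. Log2 changes are on the scale log2(signal + 14.2), which understates changes of dim genes. They come from a single limma fit over all 8 arrays with p-values adjusted by the Benjamini-Hochberg method over 27022 tested probe sets per comparison, and a change is called where the adjusted p was below 0.05. Arrays of a group correlated at 0.980 to 0.987 on the log2 scale, and an HSC Zfx-cko with an HSC Zfx-flox array at 0.963 to 0.965. The deletion could not be checked in HSC. A probe set shared by Zfx and a second symbol read 1.32 and 0.878 in ESC Zfx-null against 285 and 298 in ESC Zfx-flox, but lay near 0 in all 4 HSC arrays (1.34 and 0.305 in Zfx-cko, 7.22 and 0.971 in Zfx-flox). Another shared probe set was higher, at 492 and 471 in ESC Zfx-null against 182 and 184 in ESC Zfx-flox (log2 change 1.33, limma adjusted p = 0.000552). The remaining shared one did not pass in ESC (−0.12, limma adjusted p = 0.775). Neither of these passed in HSC (limma adjusted p = 0.683 and 0.992). Of 4 probe sets with Zfx as their only symbol, the brightest read 1192 and 1209 in HSC Zfx-cko against 696 and 752 in HSC Zfx-flox. In ESC it read 477 and 547 in Zfx-null against 262 and 318 in Zfx-flox. Another read 97.4 and 84.7 in HSC Zfx-cko against 109 and 162 in HSC Zfx-flox and did not pass (log2 change −0.49, limma adjusted p = 0.0958), one more did not pass either (0.05, limma adjusted p = 0.852), and the last was untested in HSC. In ESC all 4 were called higher in Zfx-null, by 0.79 to 1.65 on the log2 scale. Whether they lie in the deleted part is not given, so they check nothing.

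All 10 genes fell in HSC Zfx-cko relative to HSC Zfx-flox, to between 5.69% (Rhag) and 63.6% (Mfsd2b) of the Zfx-flox mean, and none rose. The background was 19.6% of 12533 tested genes called lower and 22.5% called higher. The drop was at least 2-fold in 9 of the 10, against 3.53% of genes, and at least 4-fold in 6 of the 10, against 0.646% of genes. The arrays of the groups did not overlap for any of the 10, and 33.4% of genes were likewise lower without overlap. The median log2 change over the 10 was −2.68, against 0.03 over all tested genes. The 10 genes were chosen with earlier results of these data known. These shares and the ranks below therefore describe them and test nothing. Each of the 10 read above the filter's signal cut of 25.4 in both HSC Zfx-cko arrays as well as in Zfx-flox, so none entered the test through its high group alone.

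**Figure D1:**
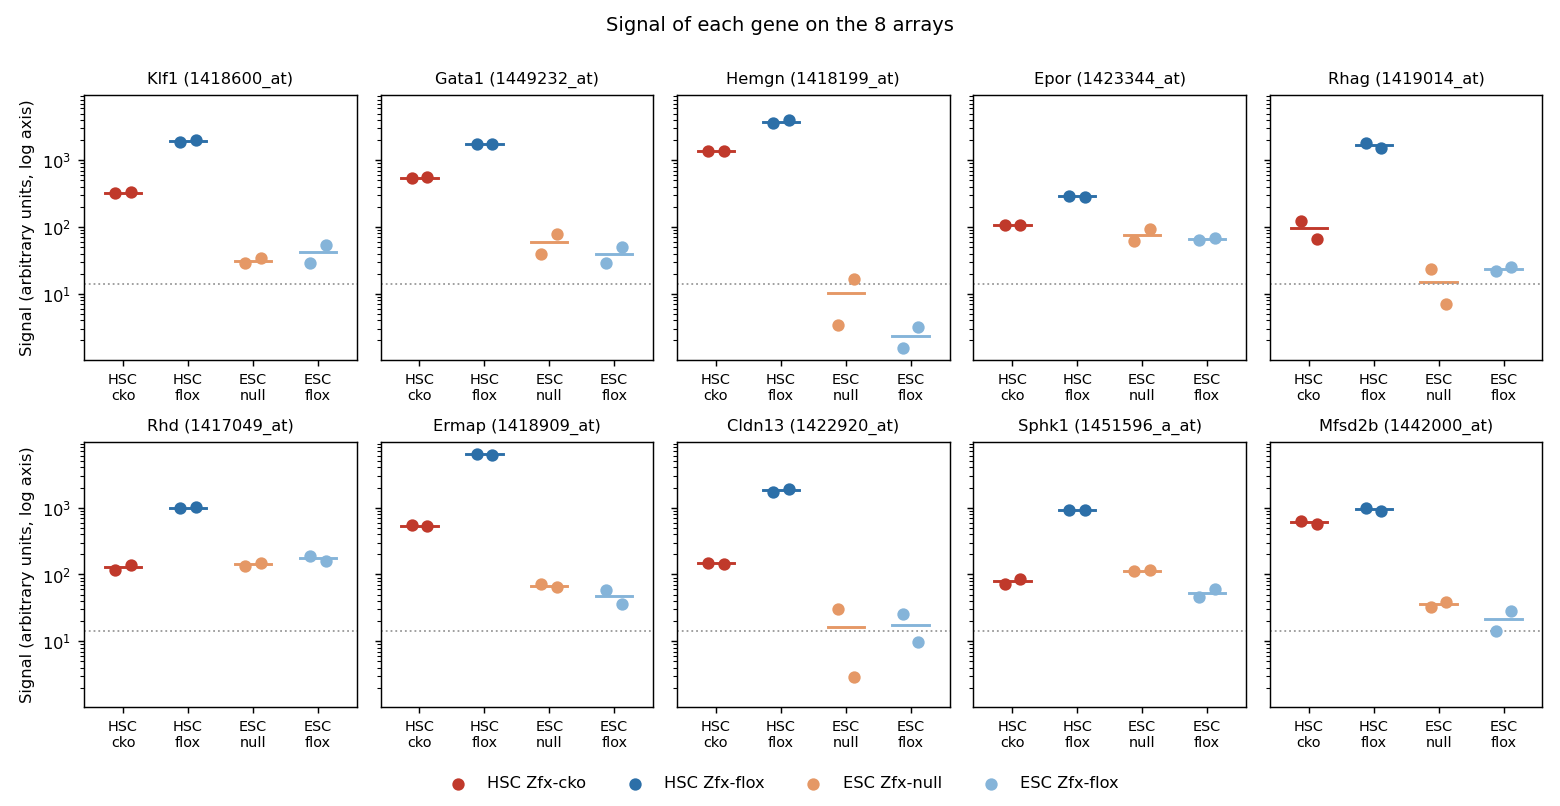
Signal of the 10 genes in every array, on a log axis, with 1 point per array and the groups in the order HSC Zfx-cko, HSC Zfx-flox, ESC Zfx-null and ESC Zfx-flox. The HSC Zfx-flox arrays were the highest of the 8 in all 10 genes, and the HSC Zfx-cko arrays stood above every ESC array in 8 of the 10, Rhd and Sphk1 being the exceptions.

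Among the regulators, Klf1, the Kruppel-like factor that activates globin and red cell membrane genes, had signals of 319 and 330.4 in HSC Zfx-cko against 1874 and 1974 in HSC Zfx-flox. Both Zfx-flox arrays stood several-fold above both Zfx-cko arrays. The log2 change was −2.52 ± 0.20 (SE, 2 arrays per group; adjusted p = 2.02e-05, limma), and the Zfx-cko mean was 16.9% of the Zfx-flox mean. Gata1, the GATA factor required for erythroid and megakaryocyte differentiation, read 536 and 562 in HSC Zfx-cko against 1754 and 1738 in HSC Zfx-flox. Both groups were tight and did not overlap, with a log2 change of −1.64 ± 0.25 (limma, adjusted p = 0.000787). Hemgn (hemogen), a nuclear protein of hematopoietic cells that is turned on in erythroid differentiation, read 1389 and 1376 in HSC Zfx-cko against 3598 and 3964 in HSC Zfx-flox. Its log2 change was −1.44 ± 0.22 (limma, adjusted p = 0.000909), and with no pseudocount the call was lost (adjusted p = 0.113).

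Epor, the receptor through which erythropoietin signals to JAK2 and STAT5, read 109 and 106 in HSC Zfx-cko against 295 and 283 in HSC Zfx-flox. The mean was 37.1% of that in Zfx-flox, with a log2 change of −1.32 ± 0.18 (limma, adjusted p = 0.00049).

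Both Rh genes fell. Rhag, the Rh-associated glycoprotein that the Rh complex needs to reach the membrane and that conducts ammonia, read 125 and 65.5 in HSC Zfx-cko against 1819 and 1525 in HSC Zfx-flox. The Zfx-cko arrays differed from each other more, in proportion, than for any other of the 10 genes, and both were far below both Zfx-flox arrays. The log2 change was −4.00 ± 0.31 (limma, adjusted p = 1.8e-05), the largest fitted value of the 10 though within the summed standard errors of the next, and the Zfx-cko mean was 5.69% of the Zfx-flox mean. Rhd, the mouse counterpart of the human Rh blood group antigen genes, read 119 and 138 in HSC Zfx-cko against 983 and 1018 in HSC Zfx-flox. Its log2 change was −2.84 ± 0.13 (limma, adjusted p = 1.37e-06).

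Ermap, an immunoglobulin superfamily protein of the erythroid membrane that carries the Scianna blood group in humans, read 551 and 531 in HSC Zfx-cko against 6344 and 6232 in HSC Zfx-flox, a mean of 8.6% of the Zfx-flox level. The log2 change was −3.51 ± 0.16 (limma, adjusted p = 1.25e-06). Cldn13, a member of the claudin family of membrane proteins found in mouse blood-forming tissue, read 148 and 145 in HSC Zfx-cko against 1743 and 1879 in HSC Zfx-flox. Its log2 change was also −3.51, with an SE of 0.39 (limma, adjusted p = 0.000136).

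The S1P genes differed from each other. Sphk1, the kinase that makes S1P from sphingosine, read 72.2 and 84.96 in HSC Zfx-cko against 920.1 and 911 in HSC Zfx-flox, and its log2 change was −3.33 ± 0.15 (limma, adjusted p = 1.23e-06). Its other probe set was dim and not tested, with 1.11 and 1.59 in HSC Zfx-cko against 19.0 and 11.6 in HSC Zfx-flox, and a mean over both probe sets gave −2.12. Mfsd2b, the transporter that exports S1P from red cells and platelets, had the smallest change. Its brighter probe set read 629.7 and 572 in HSC Zfx-cko against 984 and 906 in HSC Zfx-flox, with a log2 change of −0.64 ± 0.19 (limma, adjusted p = 0.0253). That call was lost in 7 of 21 alternatives, among them the omission of any single HSC array (adjusted p = 0.0752 to 0.137). The second probe set read 151 and 133 in HSC Zfx-cko against 157 and 188 in HSC Zfx-flox, and its log2 change of −0.25 ± 0.40 did not pass (limma, adjusted p = 0.671).

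Ordered by the size of the fall, the genes ran Rhag, Cldn13, Ermap, Sphk1, Rhd, Klf1, Gata1, Hemgn, Epor and Mfsd2b. Neighbours in that order differed by more than the sum of their standard errors at 3 places, between Sphk1 and Rhd, between Klf1 and Gata1, and between Epor and Mfsd2b. The other neighbours did not. Ranked among the 12533 genes tested in HSC from the largest fall, Rhag stood at place 2, Cldn13 at 4, Ermap at 5 and Sphk1 at 7. Rhd stood at 20, Klf1 at 37, Gata1 at 130, Hemgn at 190, Epor at 234 and Mfsd2b at 1140.

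**Figure D2:**
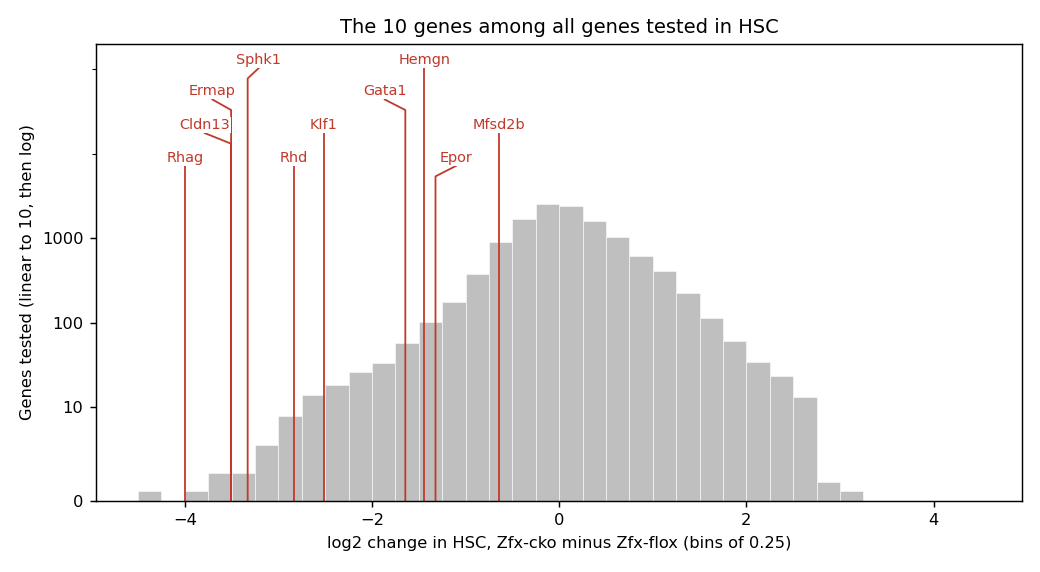
Distribution of the log2 change over all 12533 genes tested in HSC (Zfx-cko minus Zfx-flox), with the 10 genes marked. All 10 lie left of 0, and the median of all genes is 0.03.

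In ESC most of these genes were dim. Klf1, Rhag, Cldn13, Mfsd2b and Hemgn were below the filter on low signal and were not tested. Of the 5 tested, Sphk1 rose, none fell, and 2 passed an unadjusted p under 0.05 (Sphk1 and Ermap). The background was 15.3% of genes called higher and 14.3% called lower. Sphk1 read 113 and 117 in ESC Zfx-null against 46.2 and 60.2 in ESC Zfx-flox, groups that did not overlap, with a log2 change of 0.94 ± 0.15 (limma, adjusted p = 0.00219). It was called in all 20 alternatives that tested it (adjusted p at most 0.0294), and a filter at the 60th percentile left it untested. Ermap read 72.5 and 64.1 in ESC Zfx-null against 58.7 and 35.9 in ESC Zfx-flox (log2 change 0.45, limma adjusted p = 0.0692). Rhd read 132 and 150.4 in ESC Zfx-null against 190.2 and 159 in ESC Zfx-flox (log2 change −0.28, limma adjusted p = 0.157), groups that did not overlap. Gata1 read 39.8 and 78.3 in ESC Zfx-null against 29.3 and 50.6 in ESC Zfx-flox, and Epor 60.8 and 93.0 in ESC Zfx-null against 64.8 and 68.7 in ESC Zfx-flox. Both overlapped between the groups and neither passed (limma, adjusted p = 0.273 and 0.614). Single arrays decided some of these calls: without ESC Zfx-null replicate 1 Gata1 was called higher (0.80, limma adjusted p = 0.0384), and without ESC Zfx-flox replicate 1 Ermap was (0.72, limma adjusted p = 0.00464). Klf1 read 28.5 and 34.1 in ESC Zfx-null against 28.6 and 54.6 in ESC Zfx-flox. Rhag, Cldn13, Mfsd2b and Hemgn lay between 1.55 and 38.9 in the 4 ESC arrays, with the 4 Hemgn values at most 16.8.

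The difference between the cell types was tested as the HSC change minus the ESC change in the same fit. It was below 0 and called for all 10 genes, against 16.5% of 12684 genes called lower. That count describes genes chosen with earlier results known, and tests nothing about them as a set. The difference was −4.27 ± 0.21 for Sphk1 (limma adjusted p = 9.8e-06), which fell in HSC and rose in ESC. For Ermap it was −3.95 ± 0.22 (limma adjusted p = 1.67e-05), a gap from Sphk1 within the sum of their standard errors. With the mean of both Sphk1 probe sets its difference was −2.73. For Mfsd2b the difference was −1.16 ± 0.27 (limma adjusted p = 0.0116). Klf1 (−2.26), Rhag (−3.59), Cldn13 (−3.35), Hemgn (−1.94) and Mfsd2b were too dim to be tested in ESC alone. Their ESC term rests on signal near the background, where a fall could hardly show. For these genes the call therefore cannot tell a fall confined to HSC from a shared one.

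The 5 other genes whose pattern over the 8 arrays was most like the mean pattern of the 10 were Ces2g, Nfia, Igtp, Acss2 and Nxpe2. Likeness was the root mean square difference of centred log2 signals among 12533 genes, 0.09 for Ces2g, 0.14 for Nfia, 0.27 for both Igtp and Acss2, and 0.34 for Nxpe2. The 10 genes themselves stood 0.32 (Klf1) to 1.70 (Hemgn) from that mean. Nfia, a nuclear factor I protein that takes part in erythroid differentiation, read 234 and 195 in HSC Zfx-cko against 1195 and 1112 in HSC Zfx-flox (log2 change −2.36 ± 0.16, limma adjusted p = 8.38e-06). Igtp, an interferon-inducible GTPase, read 711 and 804 in HSC Zfx-cko against 4961 and 5330.4 in HSC Zfx-flox.

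A list of other erythroid regulators, which also holds factors of stem cells and megakaryocytes, did not move as a block. Of 24 tested erythroid transcription factors and cofactors, none of them among the 10 genes, 8 rose and 8 fell, with a median log2 change of 0.24. Over all tested genes 22.5% were called higher and 19.6% lower. Nfia fell as given, and Gfi1b, a repressor required for red cells and platelets, fell by 1.72 on the log2 scale (limma, adjusted p = 0.000179). Erg and Runx1, factors of stem cells and megakaryocytes, rose by 1.52 and 1.5. Gata2, the GATA factor of stem cells and early progenitors, averaged 1745 in HSC Zfx-cko against 896 in HSC Zfx-flox, a log2 change of 0.95 ± 0.09 (limma, adjusted p = 3.96e-05). Myb (0.17, limma adjusted p = 0.307) and Lmo2 (0.30, limma adjusted p = 0.384) did not pass.

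Membrane genes leaned lower. Of 24 tested genes of the red cell membrane and its skeleton, 11 fell and 4 rose, with a median of −0.31. Among all tested genes 19.6% were called lower and 22.5% higher. Aqp1, the water channel of the red cell, fell by 2.80 on the log2 scale, Tspan33, a tetraspanin of erythroid progenitors, by 2.56, and Ank1, the ankyrin that ties band 3 to spectrin, by 1.49. Sptan1, a spectrin chain of non-erythroid cells, rose by 1.57. Of the 5 tested genes of the Rh family and Rh complex, which include Rhd and Rhag, 4 fell and none rose. The others that fell were Icam4, the Landsteiner-Wiener glycoprotein (−1.09 ± 0.16, limma adjusted p = 0.000615), and Cd47 (−0.26 ± 0.07, limma adjusted p = 0.0138), while Gypc did not pass (−0.35, limma adjusted p = 0.0866). Of 8 tested claudins other than Cldn13, 1 rose (Cldn12, 1.62) and none fell.

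The signalling and lipid genes around Epor and Sphk1 moved both ways. The shares over all tested genes were 22.5% higher and 19.6% lower, and the falls in both lists lay near the latter. Of 17 tested genes of erythropoietin receptor signalling, 7 rose and 4 fell, with a median of 0.18. Socs3, a feedback inhibitor of cytokine receptors, rose by 1.48 and Sh2b3, an adaptor that restrains JAK2, by 1.34, while Tfr2, a partner of the receptor, fell by 1.25 on the log2 scale. Of 17 tested S1P genes other than Sphk1 and Mfsd2b, 8 rose and 3 fell, with a median of 0.31. The 3 that fell were Acer3, a ceramidase (−2.33), Plpp1, a lipid phosphatase (−2.21), and Sgpp1, an S1P phosphatase (−1.76), all on the log2 scale. Spns2, an S1P transporter, rose by 1.34.

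**Figure D3:**
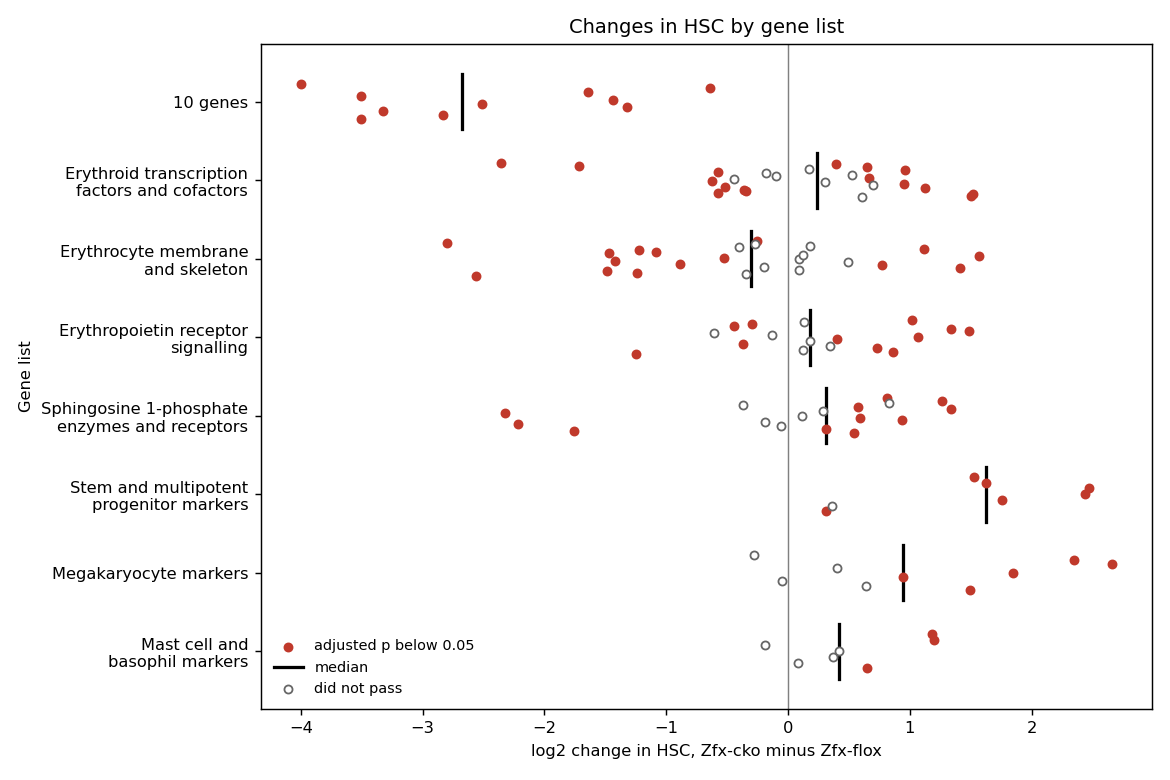
Log2 change in HSC (Zfx-cko minus Zfx-flox) of each tested gene, with 1 point per gene, filled where the adjusted p was below 0.05, and a bar at the list median. The median is −2.68 for the 10 genes, −0.31 for the membrane list, 0.24 for erythroid transcription factors, 0.18 for erythropoietin receptor signalling, 0.31 for S1P genes, 1.62 for stem and multipotent progenitor markers, 0.95 for megakaryocyte markers and 0.41 for mast cell and basophil markers.

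Some markers of other cells moved in HSC beside these genes, against 22.5% of all genes called higher and 19.6% called lower. Of 7 tested markers of stem and multipotent progenitor cells, 6 rose, and their summed signal was 11597 and 11713 in HSC Zfx-cko against 4007 and 4243 in HSC Zfx-flox. They included Procr (2.47), Flt3 (2.44), Mecom (1.75) and Cd34 (1.62). Kit, used in the sort, rose by 0.31. Of 9 tested megakaryocyte markers 5 rose, with sums of 4716 and 4706 in HSC Zfx-cko against 1676 and 1522 in HSC Zfx-flox. Most of each sum was Pf4, at 3374 and 3404 in HSC Zfx-cko against 974 and 887 in HSC Zfx-flox. Of 7 tested mast cell and basophil markers 3 rose, with sums of 4710 and 4866 in HSC Zfx-cko against 2637 and 2713 in HSC Zfx-flox. Cpa3 was the largest term, at 2399 and 2644 in HSC Zfx-cko against 1083 and 1097 in HSC Zfx-flox. The other lists lay nearer to that background or held few genes: of 8 granulocyte and monocyte markers 2 rose, of 4 macrophage markers none were called, of 3 B and T cell markers 1 rose, and of 6 interferon-inducible genes 1 rose (Ifit1, 1.30). Igtp, interferon-inducible but outside that list, was lower in HSC Zfx-cko as given above. The part of these marker changes in the falls above was not tested.

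Markers of later red cell stages were near the background in both HSC groups, except for Tfrc. Tfrc, the transferrin receptor, read 2017 and 2098 in HSC Zfx-cko against 5861 and 5802 in HSC Zfx-flox. It fell by 1.5 on the log2 scale (limma, adjusted p = 6.62e-07). Tfrc was not particular to HSC: it read 3841 and 3883 in ESC Zfx-null against 5013 and 5307 in ESC Zfx-flox. It was called lower there too, by less (log2 change −0.42, limma adjusted p = 0.000869). Alas2, the erythroid heme enzyme, read 3.55 and 3.01 in HSC Zfx-cko against 37.8 and 17.2 in HSC Zfx-flox, Epb42 read 8.13 and 7.96 in HSC Zfx-cko against 33.2 and 40.6 in HSC Zfx-flox, and Slc4a1, band 3, read 23.7 and 29.1 in HSC Zfx-cko against 16.3 and 26.9 in HSC Zfx-flox. None of the 3 was tested. The 2 tested globin genes, Hba-a2 and Hbb-b2, were dim and did not pass (limma, adjusted p = 0.162 and 0.13). The ESC markers Pou5f1, Nanog and Sox2 were below 14.2 in all 4 HSC arrays. On a control for RNA integrity, Gapdh, the 5′ signal over the 3′ signal was −4.68 and −4.39 in HSC Zfx-cko against −4.18 and −4.25 in HSC Zfx-flox on the log2 scale, lower in both Zfx-cko arrays, while that of beta-actin overlapped between the groups (−3.60 and −3.44 in Zfx-cko against −3.46 and −3.30 in Zfx-flox). In the ESC arrays the Gapdh ratio was 0.38 to 0.44 and the beta-actin ratio −0.46 to −0.29 on the same scale. That gap between the cell types was far wider than the one between the HSC groups. The part of these ratios in the falls, or in the differences between the cell types, was not tested.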

How the data were processed

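Signal was measured on 8 arrays. The deposited values are linear signal intensities that the authors made with GCOS 1.4, per the submitters' processing notes. How the probes were summarised is not given in any source used here. Each array had a mean of 250 after trimming 2% at each end, so no further scaling was applied. Every column matched a sample, and 0 were without one.

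Probe sets were named from the platform annotation: 34945 had 1 symbol, 932 several and 9160 none. Of those with 1 symbol, 34741 matched the RefSeq table (GRCm38.p6) and 0 changed. The 64 control probe sets were left out. Values were taken as log2(value + 14.2), the 25th percentile of all values. A probe set was tested where its mean over the 4 arrays of the cell type (all 8 for the difference) reached the 40th percentile.

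One model of the 4 group means was fitted with limma 3.58.1 in R 4.3.3 (eBayes, variance trend, 4 residual degrees of freedom), which pools the spread over cell types, and adjusted by Benjamini-Hochberg per comparison at 0.05. It was tested on simulated data with independent noise on each array, which cannot address arrays of a group that share RNA. Intensities carry no counts, so the number of arrays limits the precision. The 10 genes, the lists, the motifs and the tests were chosen with earlier results of these data known. Named genes were all members' probe sets; per list, as many as 4 called members, by the size of the HSC change, and 2 more by their HSC level; and the 5 genes most like the members. Marker genes given below the filter and the Zfx probe sets were chosen after their values were seen. Alternatives changed the pseudocount, scaling, filter, probe set rule, model and replicates. Listed genes without a single-symbol probe set were not analysed here.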

Additional observations from a re-analysis of the deposited data

Results flagged for a closer look

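The HSC change minus the ESC change was called below 0 for each of the 10 genes in the limma fit. On the log2 scale the difference was −4.27 for Sphk1, −3.95 for Ermap, −3.59 for Rhag, −3.35 for Cldn13 and −2.56 for Rhd. It was −2.26 for Klf1, −2.06 for Gata1, −1.94 for Hemgn, −1.47 for Epor and −1.16 for Mfsd2b. Klf1, Rhag, Cldn13, Mfsd2b and Hemgn were too dim in ESC to be tested there alone, and entered this test on a mean that their HSC signal raised. A fall in ESC could hardly show for them, so their calls cannot tell a fall confined to HSC from a shared one. With groups of 2 arrays, no array could be tested as an outlier.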

How the results depend on the processing

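Across 21 alternatives to the HSC comparison, 8 of the 10 genes kept their call and direction. Mfsd2b lost its call in 7 (adjusted p 0.000504 to 0.183) and Hemgn in 1 (5.2e-06 to 0.113). The count of members lower stayed between 9 and 10 when single arrays were left out. In ESC, members called higher numbered 0 with the filter at the 60th percentile, which left Sphk1 untested, 3 with the replicate block (Sphk1, Gata1 at adjusted p = 0.0261 and Ermap at 0.0226), and 1 to 2 with single arrays left out; the main count was 1. Ermap was called without ESC Zfx-flox replicate 1 (0.72, adjusted p = 0.00464) and Gata1 without ESC Zfx-null replicate 1 (0.80, adjusted p = 0.0384). Epor in ESC turned to −0.11 without ESC Zfx-null replicate 2, where its range was −0.11 to 0.41. The difference for the dimmer Mfsd2b probe set turned to 0.36 there, with a range of −1.11 to 0.36. In the difference, Cldn13 lost its call with no pseudocount (adjusted p = 0.145) and Mfsd2b with the mean of its probe sets (adjusted p = 0.125).

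ESC probe sets called lower numbered 3434, and 2017 to 3213 with single arrays left out, 2017 without ESC Zfx-flox replicate 1 and 2142 without replicate 2. Probe sets higher in the difference numbered 3083 with median centring against 4632. Median centring moved the share of HSC calls that were higher to 47.4%, against 57.5%, and that of the difference to 43.4%, against 55.9%. Same-numbered arrays deviated together at r = 0.0716 in HSC and 0.319 in ESC, and the labels give no shared source for a number. With the replicate block, 10 members remained lower in HSC and 10 in the difference. The causes were not tested, except that the stricter filter tests fewer genes and leaving out arrays tests fewer samples. Signal near the background limits the dim ESC values, and 2 arrays per group limit all of them.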
